A study of Homo sapiens with 18 samples.

Results

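CD10- cells sorted from the M1B26 line were compared with CD10- cells sorted from the MCF10A-CT line. The comparison used every array titled for these groups, 4 of the 18 Affymetrix expression arrays, and every gene that could be tested, 12171 of 19777. MCF10A is an immortal, nonmalignant human mammary epithelial line that lacks CDKN2A and carries extra copies of MYC. MCF10A-CT is the untreated control. M1B26 was derived from MCF10A cells sorted for the BMP receptor BMPR1B, exposed to BMP2 and IL6, and expanded from 3 colonies grown in soft agar, so it stands for a few clones. MC26 came from unsorted MCF10A cells that were given the same cytokines. The culture medium label gives 5 ng/ml BMP2 and 10 ng/ml IL6 for M1B26 and MC26, the growth protocol gives 10 ng/ml of each, and MCF10A-CT received neither. All lines shared a medium with horse serum, insulin, hydrocortisone, cholera toxin and EGF. Cells were trypsinised and either frozen directly (the unsorted arrays) or stained for CD10 and sorted by flow cytometry. Each line was profiled as unsorted, CD10- and CD10+ cells, with 2 arrays labelled as biological replicates per group. Nothing in the labels says that replicates came from separate cultures, so p-values measure the spread between these arrays, and 2 arrays a group limit the precision. In the text, a pair of intensities is given as replicate 1 and then replicate 2.

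CD10 is a metallopeptidase of the cell surface, encoded by MME, and in the mammary gland it is found on basal and myoepithelial cells and on immature epithelial cells. BMP2 binds type I receptors such as BMPR1B, and the receptor then phosphorylates SMAD proteins that switch on ID1 and other targets. IL6 acts through its receptor and IL6ST on JAK kinases and STAT3, which induces its own inhibitor SOCS3. The question behind the comparison is which genes separate the transformed line from its control when the CD10 gate is the same in both.

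The gate was checked on MME itself. Its probe set gave intensities of 56.4 and 15.9 in CD10- M1B26 and of 9.7 and 11.3 in CD10- MCF10A-CT. The control pair lay under the background level of 14.27, the median of all probe set means, and the M1B26 pair lay above it. The log2 difference of 1.44 in MME (SE 0.64, adjusted p = 0.11) did not pass the threshold, and on the other MME probe set replicate 2 of M1B26 was under background as well, with 51.9 and 13.4 against 3.3 and 1.8. CD10+ cells read 1269 and 1021 in M1B26 and 48.3 and 65.0 in MCF10A-CT, so within each line CD10- lay below CD10+, while CD10- M1B26 replicate 1 lay between the CD10+ control arrays. Epithelial and mesenchymal markers were both present. All 6 measured epithelial markers were above background on every CD10- array, with summed intensities of 17907 to 22548 in M1B26 and of 15271.0 to 16381 in MCF10A-CT. KRT5, a basal keratin, read 7016 and 5645 against 5493 and 5092, and KRT18, a luminal keratin, 5709 and 5229 against 4511 and 4013. Of 6 mesenchymal markers 5 were above background in M1B26 and 6 in MCF10A-CT, with sums of 7417 to 8051 and of 6297 to 7962, and VIM was most of these. Of the leukocyte markers 2 of 4 were above background in M1B26 and 1 of 4 in MCF10A-CT, and of the endothelial and fibroblast markers 1 of 4 and 2 of 5 in each.

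The sorted control arrays stood apart from the others, and this touches each result that uses them. Genes of DNA replication (G1-S, 50 tested) had a mean log2 intensity of 7.57 and 6.59 on the CD10- MCF10A-CT arrays and 7.83 and 6.89 on the CD10+ ones. The unsorted MCF10A-CT arrays had 9.33 and 9.12, and the CD10- M1B26 arrays 9.73 and 9.43. Genes of mitosis (G2-M, 62 tested) were placed the same way, at 7.84 and 7.64 in CD10- MCF10A-CT against 9.65 and 9.72 in unsorted MCF10A-CT and 9.58 and 9.53 in CD10- M1B26. No sorted MCF10A-CT array reached the lowest value of any other group on either list. Within MCF10A-CT, 45 of the 50 G1-S genes and 61 of the 62 G2-M genes were lower in CD10- than in unsorted cells and none was higher, where 13.1% of all tested genes passed the threshold in that contrast, 9.19% lower and 3.94% higher. Within M1B26 the same contrast called 0.682% of genes and within MC26 0.337%. The CD10+ MCF10A-CT arrays had 8.24 and 8.1 for G2-M, so both gated fractions lay below the unsorted cells on both lists. The cause was not tested. Sorting and culture state cannot be told apart, since the unsorted cells were also handled differently.

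**Figure D1:**
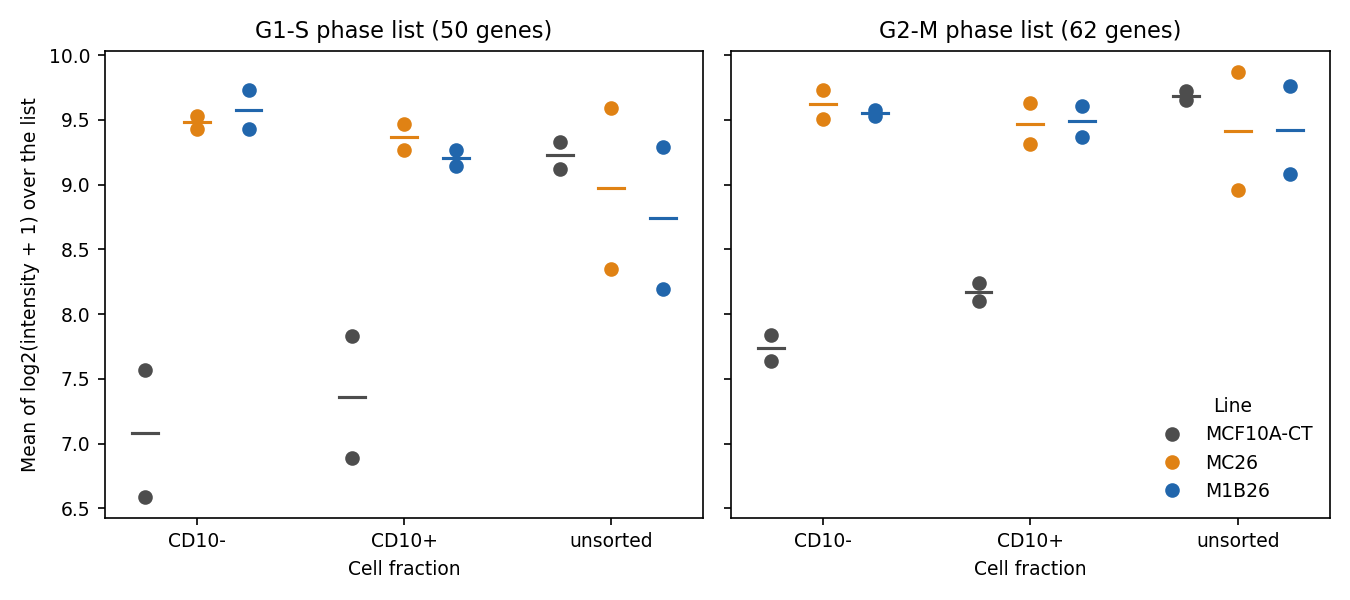
Mean log2(intensity + 1) over the G1-S and G2-M gene lists (y axis) for each of the 18 arrays, by cell fraction (x axis) and line (colour); points are arrays and bars are the means of 2 arrays. The CD10- MCF10A-CT arrays lie at 6.59 and 7.57 for G1-S, while the CD10- M1B26 arrays lie at 9.43 and 9.73.

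In CD10- cells, 3218 genes differed between M1B26 and MCF10A-CT at a limma adjusted p under 0.05, 26.4% of those tested. Of these, 2407 were higher and 811 lower in M1B26 (19.8% and 6.66% of all tested). The change was at least 2-fold for 2000 genes, at least 4-fold for 447 and at least 8-fold for 111. On each of the 3218 genes the arrays of the lines did not overlap, and without overlap stood 60.8% of all genes tested, called or not. The count leaned on single arrays, falling to 1024 without MCF10A-CT CD10- replicate 2 and to 1361 without M1B26 CD10- replicate 1. The median over all tested genes was itself 0.23 higher in M1B26 on the log2 scale, and with arrays centred on that median the split of calls moved from 74.8% higher to 52.6% higher. Medians of gene lists are therefore given below relative to all genes. With the unsorted MCF10A-CT arrays in place of the sorted ones as control, 242 genes differed from CD10- M1B26, 173 of them higher (1.99% in all). The line difference itself depended on fraction, CD10- or unsorted, for 937 genes (7.7%).

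The lines were also compared on arrays that the CD10- comparison did not use. By flow cytometry, the paper found a larger share of CD10+ cells in M1B26 than in MCF10A-CT. The unsorted difference therefore also holds this shift in CD10+ share, and it is not the same quantity as the CD10- difference. In unsorted cells 82 genes passed the threshold (0.674%, with 0.542% higher and 0.131% lower), and 54 of them were also called in CD10- cells in the same direction, 40 higher and 14 lower. These were 65.9% of the unsorted calls and 1.68% of the CD10- calls. The unsorted count fell to 30, 38 and 20 without M1B26 replicate 1, M1B26 replicate 2 and MCF10A-CT replicate 2. A further 5 genes were called in opposite directions (GALNT15, JHY, S100A8, S100A9 and TMC6). The genes called higher in CD10- cells had a median difference of 1.09 there and of -0.04 in unsorted cells, and those called lower had -1.33 and -0.01. In CD10+ cells 3219 genes passed (26.4%, with 21.1% higher and 5.32% lower), of which 1768 were also called in CD10- cells in the same direction, 54.9% of each set, and 24 in opposite directions. The count of 3219 fell to 910, 934 and 1570 without MCF10A-CT CD10+ replicate 2, M1B26 CD10+ replicate 2 and M1B26 CD10+ replicate 1. The share of CD10+ calls that were higher, 79.9%, became 45.3% with each array centred on its median and 44.8% with quantile normalization. The CD10+ controls are separate arrays, but the differences between replicates 1 and 2 of CD10- and of CD10+ MCF10A-CT correlated across genes at r = 0.635, so the sorted control pairs were not independent of each other. Across all 3 fractions 44 genes were called in the same direction, 32 higher and 12 lower.

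**Figure D2:**
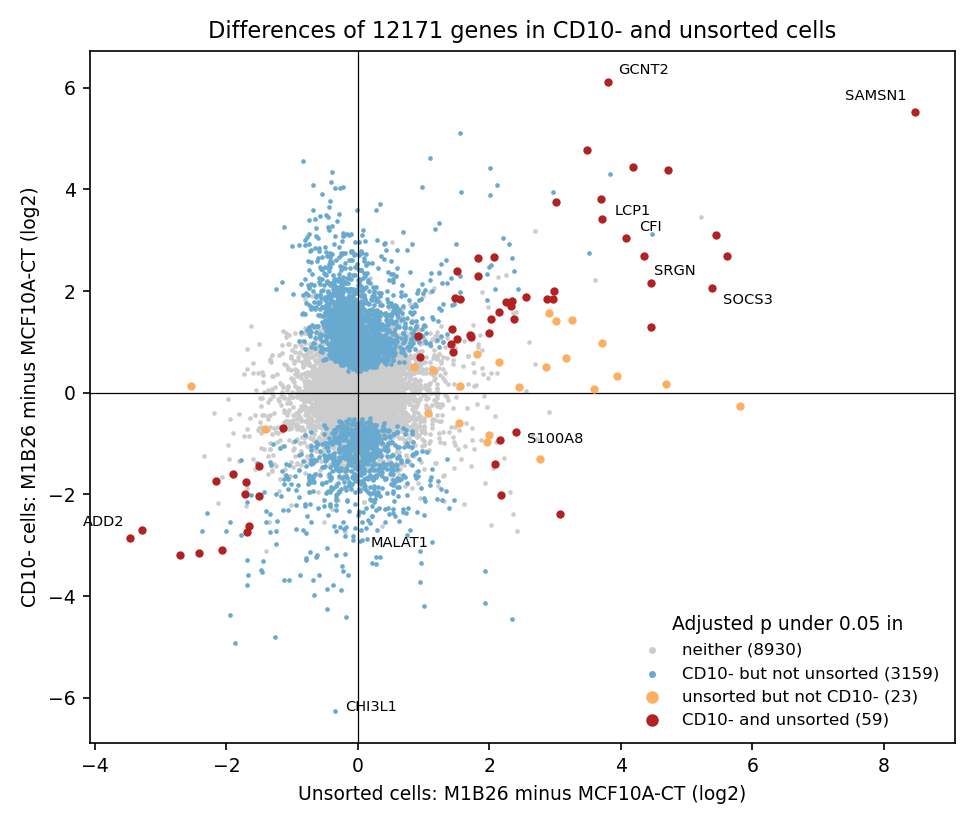
Log2 difference M1B26 minus MCF10A-CT of each of the 12171 genes in unsorted cells (x axis) and CD10- cells (y axis), coloured by where the adjusted p was under 0.05. The 59 genes called in both lie mostly along the diagonal, whereas the genes called in CD10- cells alone spread along the y axis around 0 on the x axis.

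Genes called higher in all 3 fractions included SAMSN1, LCP1, PTPN22, SRGN and GCNT2. SAMSN1, an adaptor protein of haematopoietic cells, read 1652 and 751 in CD10- M1B26 against 18.5 and 29.2 in CD10- MCF10A-CT. Unsorted M1B26 read 2467 and 1963 against 8.6 and 3.0. M1B26 was the higher line on each of these arrays, by 5.52 in CD10- cells (SE 0.55, adjusted p = 8.1e-05) and by at least 144-fold in unsorted cells, where the control was under background. LCP1, the actin-bundling protein L-plastin, read 939 and 946 against 91.4 and 82.8 in CD10- cells, and 868 and 1021 against 79.6 and 62.5 in unsorted cells. The LCP1 arrays of the lines were clearly separate, with a log2 difference of 3.42 (SE 0.24, adjusted p = 2.3e-06) and of 3.72 (SE 0.24). PTPN22, a phosphatase of lymphoid cells, read 108 and 89.5 against 9.6 and 1.0 and was at least 6.51-fold higher. SRGN, the proteoglycan serglycin, read 2579 and 1952 against 400.0 and 299.9 in CD10- cells and 2718 and 2069 against 170.0 and 78.2 in unsorted cells, a difference of 2.69 (SE 0.50, adjusted p = 0.002) in the former. GCNT2, which adds branches to cell surface sugar chains, read 106 and 218 against 1.9 and 0.7 in CD10- cells and was at least 10-fold higher. The summed intensity of the leukocyte markers overlapped between the lines, at 300.5 to 402.3 in CD10- M1B26 and 290.0 to 406.3 in CD10- MCF10A-CT, and PTPRC, the pan-leukocyte antigen CD45, under background on all 4 arrays. LCP1, FN1, ALDH3A1, TACC2, P3H2, IL1R2 and WNT5A fell outside the rule for naming genes and were chosen after their values were seen, as were CDKN2A, FKBP5, KRT8 and those list members below that are named to complete a count.

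Secreted and matrix genes were among the shared calls too. CFI, complement factor I, read 462 and 397 against 49.0 and 53 in CD10- cells and 553 and 430.3 against 33.3 and 23.3 in unsorted cells. The CFI difference was 3.05 (SE 0.26, adjusted p = 1.4e-05) and 4.08 (SE 0.26, adjusted p = 4.3e-07), with no overlap in either fraction. FN1, fibronectin, read 1063 and 581 against 38.7 and 76.8, and was 3.82 higher (SE 0.77, adjusted p = 0.0032). In CD10+ cells FN1 read 8258 and 8402 against 58.6 and 155, so M1B26 was higher in both gates and highest in CD10+ cells. WNT5A, a secreted Wnt ligand, read 222 and 135 against 58.9 and 38.6 (1.84, SE 0.42, adjusted p = 0.0067). IL1R2, the decoy receptor for interleukin 1, read 302 and 190.1 against 54.6 and 51.1 (2.16, SE 0.63, adjusted p = 0.020). Both followed FN1 in reaching far higher intensities in CD10+ M1B26, at 2836 and 3610.0 for WNT5A and at 8935 and 7839 for IL1R2. MME itself read 56.4 and 15.9 in CD10- M1B26 and 1269 and 1021 in CD10+ M1B26. SAMSN1, SRGN and PTPN22 also read higher in CD10+ M1B26, at 5184 and 4528, 6129 and 6302, and 172 and 118. LCP1 and GCNT2 read lower there, at 397 and 426 and at 56.8 and 49.7. Whether CD10+ cells left in the CD10- gate account for part of the values of the genes that were higher in CD10+ M1B26 was not tested.

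The 14 shared genes lower in M1B26 included cytoskeletal and metabolic ones. ADD2, beta-adducin of the membrane skeleton, read 5.1 and 25.4 in CD10- M1B26 against 76.6 and 86.1 in the control (-2.70, SE 0.48, adjusted p = 0.0017), with 1 M1B26 array under background. ALDH3A1, an aldehyde dehydrogenase, read 35.1 and 22.7 against 307 and 231 (-3.19, SE 0.49, adjusted p = 0.00074). TACC2, a centrosome-associated protein, read 464 and 345 against 3204 and 2264 (-2.75, SE 0.31, adjusted p = 0.00016). P3H2, a collagen prolyl hydroxylase, read 93.9 and 41.0 against 462 and 682 (-3.15, SE 0.35, adjusted p = 0.00014). All 4 were also below the control on both unsorted M1B26 arrays, where they differed by -3.29, -2.71, -1.69 and -2.41.

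**Figure D3:**
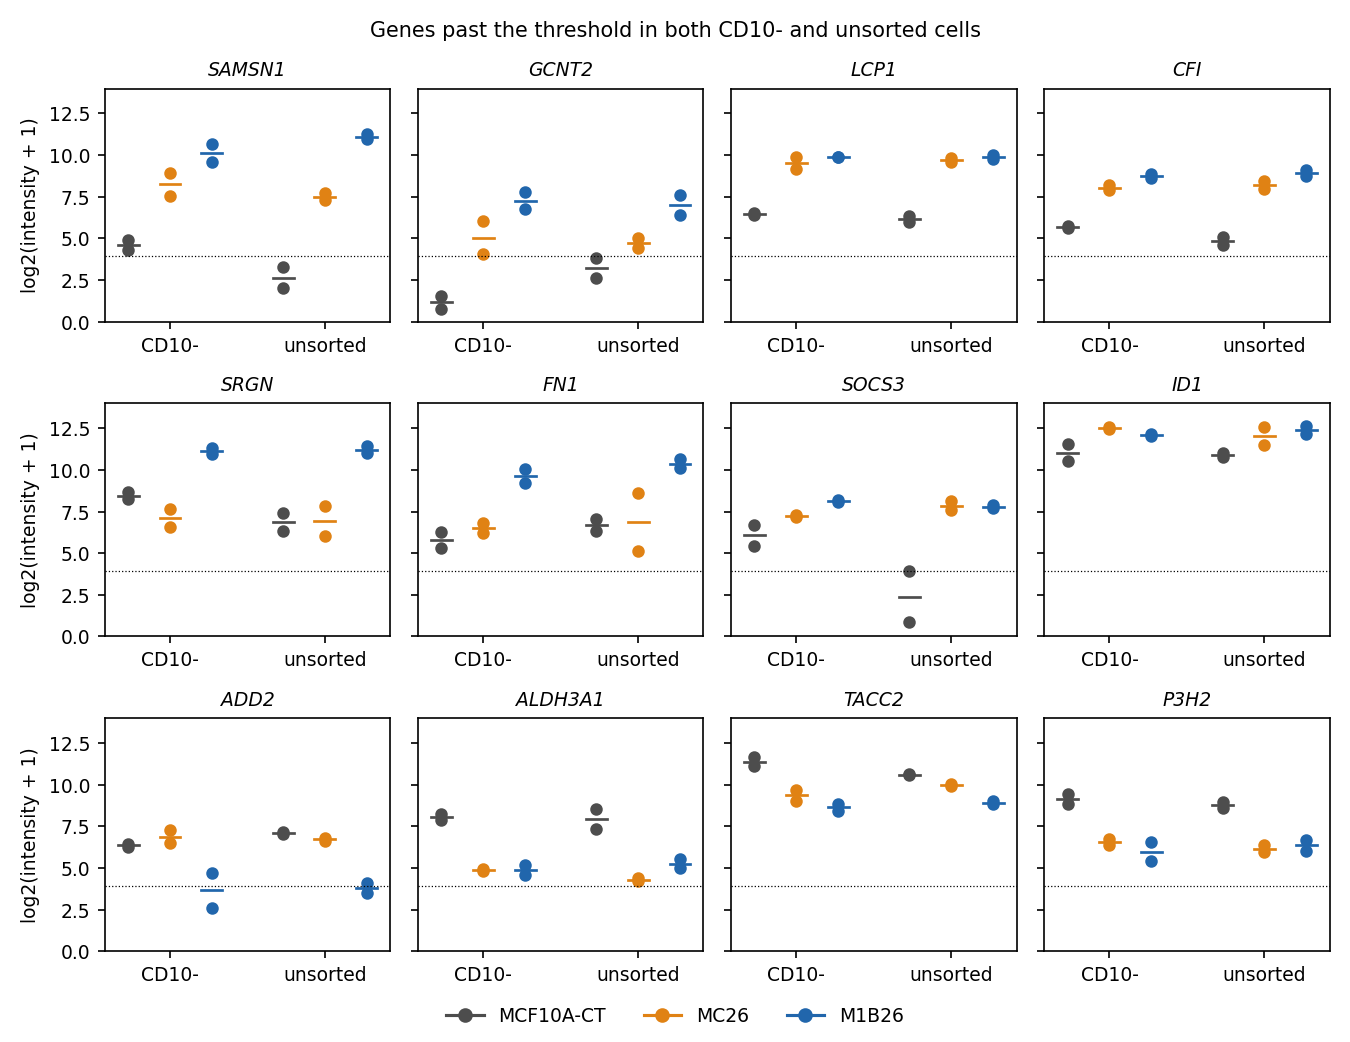
Log2(intensity + 1) (y axis) of 12 genes called in both CD10- and unsorted cells, by fraction (x axis) and line (colour); points are arrays, bars are means of 2 arrays and the dotted line is the background level of 3.93. In CD10- cells LCP1, ALDH3A1 and P3H2 of MC26 lie near M1B26, whereas FN1 and ADD2 of MC26 lie near MCF10A-CT and SRGN of MC26 lies below it.

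The largest CD10- differences were often absent from unsorted cells. Among the 15 largest increases were genes of replication and growth: MCM10 and CDC45, which open replication origins, TEDC1, a centriole protein, and PYCR3, an enzyme of proline synthesis. MCM10 read 675 and 517 against 79.1 and 7.0 in CD10- cells, but 97.0 and 455 against 415 and 338 in unsorted cells. CDC45 read 374 and 347 against 59.3 and 7.0, and then 197 and 337 against 302 and 301. For both genes the CD10- control arrays were the low ones, while in unsorted cells M1B26 replicate 1 lay below and replicate 2 above both control arrays. The difference between fractions was 5.38 for MCM10 (SE 1.34, adjusted p = 0.025) and 4.26 for CDC45 (SE 0.91, adjusted p = 0.014). ITFG2 (72.0 and 73.8 against 3.4 and 3.0, at least 4.84-fold) and TEDC1 (58.4 and 102 against 2.5 and 3.3, at least 5.11-fold) shared this form, with unsorted control values of 68.5 and 85.7 for ITFG2 and of 50.8 and 49.8 for TEDC1. ITFG2 had 3 probe sets above background, and 2 of them had the opposite sign in CD10- cells. CD59, CDK6, ERBB3, FN1, MDM2, MSX1, NRG1, JHY, UGT8 and VIM each had 1 probe set of the opposite sign. Of the 15, the control was under background on both arrays for 10 and on 1 array for 4, so their fitted folds depend on the lowest signals.

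Other large increases were receptors, ligands and proteases. PRSS23, a secreted serine protease, read 165 and 73.4 against 3.4 and 1.3, at least 7.28-fold higher. IL7R, the interleukin 7 receptor, read 134 and 134 against 12.4 and 2.0, at least 8.84-fold higher, and reached 536 and 566 in CD10+ M1B26. NRG1, a ligand of ERBB3 and ERBB4, read 164 and 119 against 3.6 and 14.7 (4.05, SE 0.80, adjusted p = 0.0029). ERBB3 itself, by contrast, read 29.3 and 60.7 against 174 and 148 and was lower by 1.90 (SE 0.36, adjusted p = 0.0022). HOXB6, a homeobox gene, was at least 5.60-fold higher, and the noncoding LINC02910 at least 6.73-fold. A probe set named for KIR2DL5A, a receptor of natural killer cells, read 265 and 129.5 against 3.5 and 9.4, at least 12.2-fold, and its design allows binding to related transcripts. That probe set read 751 and 692 in CD10+ M1B26.

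The 15 largest decreases held secreted, channel and hormone-responsive genes, and several were higher in CD10- than in unsorted MCF10A-CT. PAQR6 and SCNN1G were not called in that contrast (0.44 and 0.45, adjusted p = 0.77 and 0.79). Nor were AQP3, FXYD3, PDK4, TSC22D3, KRT15 and ANKS1B (adjusted p from 0.061 to 0.16). PAQR6 and SCNN1G were lower in CD10- M1B26 than in the unsorted control (-3.82, adjusted p = 0.031, and -4.36, adjusted p = 0.028). So were FXYD3 (-3.07, adjusted p = 0.0079) and SGPP2 (-2.37, adjusted p = 0.0069). CHI3L1, a secreted chitinase-like protein, read 14.5 and 1.2 in CD10- M1B26 against 512 and 399.9 in CD10- MCF10A-CT, yet 9.6 and 3.3 in unsorted MCF10A-CT and 13 and 1.0 in unsorted M1B26, all under background. SERPINA3, the acute-phase protein antichymotrypsin, read 207 and 167 against 3128 and 3750.0, and 445 and 399.7 in unsorted MCF10A-CT. CYP1B1, a cytochrome P450, read 261 and 154 against 2149.7 and 3295, and 601 and 535 in unsorted MCF10A-CT. Among the CD10- and unsorted arrays of M1B26 and MCF10A-CT, the CD10- control arrays were the highest for all 3. CD10+ M1B26 read 5027 and 5508 for SERPINA3, above those controls. CYP1B1 in CD10- M1B26 was also below the unsorted control (-1.49, SE 0.27, adjusted p = 0.01) and unsorted M1B26 (-2.43, SE 0.27, adjusted p = 0.00058). The line difference in CD10- cells less that in unsorted cells was -5.20 for SERPINA3 (SE 0.72, adjusted p = 0.0035). For CYP1B1 it was -4.66 (SE 0.39, adjusted p = 3.8e-05). AQP3, a water and glycerol channel, read 66.9 and 53.3 against 1068 and 3218, and FXYD3, a regulator of the sodium pump, 40.8 and 156 against 1746 and 1633. Both were also lower on the unsorted M1B26 arrays than on their controls on average, by -1.87 (adjusted p = 0.67) and -1.95 (adjusted p = 0.18), neither past the threshold. SCNN1G, a subunit of the epithelial sodium channel, read 49.4 and 15.6 against 695 and 938, and KRT15, a basal keratin, 34.3 and 47.9 against 1344 and 213. SGPP2, which dephosphorylates sphingosine phosphate, read 94.1 and 106 against 1467 and 1476 (-3.87, SE 0.40, adjusted p = 0.00011). SULF1, a heparan sulfate sulfatase, LEMD1, PAQR6, TMEM61 and ANKS1B were under background on both M1B26 arrays and lower by at least 5.30, 12.4, 4.59, 7.83 and 5.62-fold.

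MALAT1, a nuclear noncoding RNA, gave a further difference that the unsorted arrays did not show. It read 726 and 972 in CD10- M1B26, 2761 and 2821 in CD10- MC26 and 5697 and 7100.1 in CD10- MCF10A-CT, the lines falling in that order with no overlap. Unsorted cells read 5039 and 4045 in M1B26 and 4611 and 4228 in MCF10A-CT. The CD10- difference was -2.92 (SE 0.21, adjusted p = 2.3e-06), against 0.03 in unsorted cells (SE 0.21, adjusted p = 1).

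The G1-S genes had the highest median difference of the 39 gene lists. In bulk samples fewer cycling cells and less of these RNAs per cell cannot be told apart. Of the G1-S list 48 of 50 genes were higher in CD10- M1B26 and none was lower, with a median 2.20 above that of all genes. Of the G2-M list 60 of 62 were higher, with a median 1.77 above that of all genes, and CDC25B, a phosphatase that activates CDK1, was lower by 0.77. Both lists had 0 genes past the threshold in unsorted cells, where their medians lay 0.47 and 0.28 below that of all genes. TYMS, thymidylate synthase, read 4722 and 3803 against 745 and 399.7 in CD10- cells and 2295 and 3815 against 3097 and 2986 in unsorted cells. DTL, which targets replication factors for degradation, read 2286 and 1798 against 249 and 104, and CDC6, a loader of the replicative helicase, 864 and 602 against 105 and 36.6. HMMR, a spindle protein, read 1449.9 and 1396 against 375 and 210.1, CCNB1, the mitotic cyclin B1, 2983 and 3012 against 751 and 629, and the proliferation marker MKI67 578 and 433 against 161 and 119. In each of these 6 genes the low arrays were those of sorted MCF10A-CT. The log2 differences were 2.96 for TYMS (SE 0.32, adjusted p = 0.00013), 3.65 for DTL (SE 0.53, adjusted p = 0.00057), 2.34 for HMMR (SE 0.26, adjusted p = 0.00015) and 1.85 for MKI67 (SE 0.36, adjusted p = 0.0028). Leaving out the 112 genes of both lists left 3109 calls, 2299 higher and 810 lower.

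The 250 bases before the start of transcription of the G1-S, G2-M and interferon genes were read for 3 sequence words (RefSeq promoters, GRCh38.p14). The E2F words TTTCCCGC, TTTCGCGC, TTTGCCGC and TTTGGCGC, on either strand, were present in 14 of 41 G1-S promoters (34.1%), against 2.79% of all 27305 promoters. The CHR word TTTGAA, known from mitotic genes, was in 25 of 50 G2-M promoters (50%), against 13.6% of all. For interferon genes the word GAAA, any 2 bases, GAAA was in 25 of 44 promoters (56.8%), against 3.07% of all. A match is a word in the window and was not tested as a binding site. Of these, 5 promoters are shown for genes described here, each 5′ to 3′ on the strand of the gene and with the matched word in capitals: TYMS at chr18:657403-657652 (plus strand) and DTL at chr1:212035498-212035747 (plus strand) for E2F, HMMR at chr5:163460382-163460631 (plus strand) and NCAPG at chr4:17810729-17810978 (plus strand) for CHR, and PLSCR1 at chr3:146544608-146544857 (minus strand) for the interferon word.
TYMS: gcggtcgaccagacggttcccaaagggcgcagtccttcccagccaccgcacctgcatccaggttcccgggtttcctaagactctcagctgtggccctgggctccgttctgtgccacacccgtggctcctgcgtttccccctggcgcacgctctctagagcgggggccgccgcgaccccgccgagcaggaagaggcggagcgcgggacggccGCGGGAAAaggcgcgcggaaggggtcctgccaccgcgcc
DTL: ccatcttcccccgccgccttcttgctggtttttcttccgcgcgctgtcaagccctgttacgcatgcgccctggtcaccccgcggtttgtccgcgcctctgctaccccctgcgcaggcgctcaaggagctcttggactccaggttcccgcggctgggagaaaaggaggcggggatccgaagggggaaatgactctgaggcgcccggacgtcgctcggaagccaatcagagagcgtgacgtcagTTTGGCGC
HMMR: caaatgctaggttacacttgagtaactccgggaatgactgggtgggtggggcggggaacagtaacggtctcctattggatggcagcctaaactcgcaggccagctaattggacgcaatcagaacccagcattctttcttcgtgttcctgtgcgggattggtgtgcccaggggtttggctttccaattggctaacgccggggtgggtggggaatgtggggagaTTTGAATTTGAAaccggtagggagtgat
NCAPG: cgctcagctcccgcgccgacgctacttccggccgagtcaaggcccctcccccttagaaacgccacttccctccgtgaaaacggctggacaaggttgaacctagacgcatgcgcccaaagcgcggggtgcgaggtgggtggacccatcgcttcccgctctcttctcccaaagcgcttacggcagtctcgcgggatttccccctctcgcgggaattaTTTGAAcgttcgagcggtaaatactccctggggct
PLSCR1: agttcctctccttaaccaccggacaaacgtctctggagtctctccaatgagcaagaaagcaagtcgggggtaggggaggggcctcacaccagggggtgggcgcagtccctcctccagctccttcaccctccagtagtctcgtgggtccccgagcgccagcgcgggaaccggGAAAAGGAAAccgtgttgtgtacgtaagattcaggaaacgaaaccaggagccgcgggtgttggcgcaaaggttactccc

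The CDK inhibitors and G1 cyclins were a further cycle list, with 8 of 17 genes higher and 3 lower in CD10- M1B26 (64.7% called). CCND2, cyclin D2, read 2134 and 1736 against 671 and 605, and CDK6, a kinase that it activates, 1493 and 1216 against 575 and 615. CDKN1C, the CDK inhibitor p57, read 45.3 and 29.5 against 516 and 394 and was lower by 3.59 (SE 0.57, adjusted p = 0.00094). CDKN2A, which the line is said to lack, was called lower too, at 6.4 and 3.4 against 26.7 and 45.8, at least 2.36-fold, on a probe set that may bind related transcripts. Unsorted cells had no call on this list. Of 26 p53 targets 5 were higher and none lower, a share of 19.2% called against 26.4% of all genes. Among them were TIGAR, a regulator of glycolysis, at 1181 and 829.7 against 361 and 146, and MDM2, the ubiquitin ligase of p53, at 1843 and 1286 against 1035 and 845, which had -0.91 on probe sets specific to 1 gene.

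BMP pathway genes were called in CD10- cells on the lists of targets and of ligands and antagonists, but not among the receptors. The shares were 26.7% of the targets and 30% of the ligands and antagonists, near the 26.4% of all genes. None of the 10 BMP receptors and SMADs passed, and BMPR1B, the receptor by which M1B26 was sorted, read 167 and 136 against 229.5 and 163 (-0.36, SE 0.27, adjusted p = 0.34). Of 15 BMP-SMAD targets 3 were higher and 1 lower, with a median 0.27 below that of all genes. ID1, an inhibitor of helix-loop-helix factors, read 4256 and 4507 against 2982 and 1489 (1.05, SE 0.31, adjusted p = 0.023), and it was higher in unsorted cells too (1.51, SE 0.31, adjusted p = 0.038). ID3 read 562 and 859 against 347 and 699, and its arrays overlapped. The homeobox genes MSX2 (167 and 100.3 against 27.9 and 42.4) and MSX1 were higher and HES1 lower, though MSX1 had -0.56 when only probe sets specific to 1 gene were used. On the list of 10 BMP ligands and antagonists FSTL1 was higher by 1.25, and BMP1 and NOG, the antagonist noggin, were lower by 1.41 and 2.12. BMP1 is a protease, neither a ligand nor an antagonist, and is counted in the 30%. NOG read 19.2 and 7.8 against 44.4 and 73.9, with 1 M1B26 array under background.

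IL6 signalling components were near even between the lines, while several acute-phase genes were lower in CD10- M1B26. Of 16 receptors, JAKs and STATs 2 were higher: IL6ST (2152 and 1638 against 1297 and 1004) and the phosphatase PTPN11 (3925 and 2861 against 2264 and 2262). The share called was 12.5% on this list and 27.8% on the IL6 and STAT3 response list, beside 26.4% of all genes. Of 18 genes of the IL6 and STAT3 response 1 was higher and 4 lower, with a median 0.68 below that of all genes and 0.22 above it in unsorted cells. The higher gene was SOCS3, at 295 and 269 against 41.9 and 104 (2.07, SE 0.70, adjusted p = 0.040), and it read 233 and 207 against 14.2 and 0.8 in unsorted cells. The lower genes were SERPINA3, BCL6, LCN2 and CEBPD, of which CEBPD, a transcription factor of the acute phase, read 1182 and 904 against 2026 and 3635. SOCS3 and the other 4 thus differed in opposite directions in CD10- cells. Within MCF10A-CT, 5 of the 18 response genes were higher in CD10- than in unsorted cells and none was lower. IL6 itself was low in CD10- cells, at 14.2 and 13.3 against 31.1 and 17.7.

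Complement genes split in CD10- cells, 2 of 13 higher and 4 lower, and 4 of 13 were higher in unsorted cells. The share called in CD10- cells was 46.2%, beside 26.4% of all genes. Besides CFI, the membrane inhibitor CD59 was higher at 3950.1 and 3782 against 1878 and 1688, and had -0.50 on probe sets specific to 1 gene. C3, the central complement component, read 1767 and 835 against 3253 and 4234 (-1.61, SE 0.35, adjusted p = 0.0044), and CFB, complement factor B, 44.0 and 42.6 against 220.3 and 164 (-2.11, SE 0.43, adjusted p = 0.0033). In unsorted cells both read higher in M1B26, C3 at 2819.5 and 1964 against 1473 and 1129.5 and CFB at 84.6 and 64.8 against 28.9 and 23.9, and neither difference passed the threshold there. S100A8 and S100A9, calcium-binding proteins of inflamed epithelium, changed sign between fractions past the threshold in each. S100A8 read 6097 and 6087 against 10164 and 10809 in CD10- cells and 14785 and 9714 against 3303 and 1545 in unsorted cells, differences of -0.78 (adjusted p = 0.043) and 2.41 (adjusted p = 0.00032).

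Interferon response genes were higher more often than lower, 15 against 2 of 55, a share called of 30.9% beside 26.4% of all genes, and their median was 0.21 above that of all genes. IFIT1, which binds foreign RNA, read 63.9 and 43.8 against 15.8 and 10.1, HERC6 163 and 136 against 44.1 and 38.3, IFI35 99.8 and 67.7 against 25.1 and 12.9, and the scramblase PLSCR1 971 and 904 against 424 and 457. These 4 were higher by 1.98, 1.83, 2.13 and 1.09, with all CD10- M1B26 arrays above the controls. GBP2 and OAS1, both also interferon-induced, were lower by 2.16 and 1.37. No interferon gene was called in unsorted cells, where the median was 0.25 above that of all genes. Antigen processing genes of the MHC class I list were 3 higher and 3 lower of 19 (31.6% called).

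Of 35 TNF and NF-kB response genes 5 were higher and 10 lower in CD10- M1B26, 42.9% called beside 26.4% of all genes. The higher ones were chemokines, cytokines and enzymes: CXCL1, CSF3, IL1B, GCH1 and PTGS2. CSF3, the granulocyte growth factor, read 368 and 642 against 151 and 113 (1.89, SE 0.44, adjusted p = 0.0072) and was called in unsorted and CD10+ cells too. PTGS2, the inducible cyclooxygenase, read 108 and 99.5 against 18.5 and 23.3 in CD10- cells, and 496 and 378 against 16.4 and 40.4 in CD10+ cells. The lower ones included TNFAIP2 (67.6 and 47.4 against 451 and 312), the inhibitors NFKBIA, NFKBIE and NFKBIZ, and SOD2. Within MCF10A-CT, 9 genes of this list were higher in CD10- than in unsorted cells and none was lower. In unsorted cells 2 of the list were higher in M1B26 and none was lower.

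Growth factor lists held calls in both directions, as did all genes tested (19.8% higher and 6.66% lower). FOSL1, a target of ERK signalling, read 462 and 458 against 75.4 and 91.3 (2.46, SE 0.33, adjusted p = 0.00038), and the receptor EPHA2 837 and 904 against 301 and 357. EGR1, an immediate early gene, read 949.6 and 783 against 2131 and 2577, and ATF3, induced by stress, 26.3 and 24.3 against 168 and 454. ERRFI1, an inhibitor of the EGF receptor, read 629.6 and 625 against 2196 and 4235 (-2.28, SE 0.27, adjusted p = 0.00019), and the ligand TGFA 837 and 838 against 264 and 428. Of 24 genes of ERK output 4 were higher and 1 lower, of 12 EGF family genes 2 and 2, and of 24 immediate early and heat shock genes 4 and 6. The shares called were 20.8%, 33.3% and 41.7%, beside 26.4% of all genes. In the TGF-beta list 3 of 20 were higher and 2 lower (25% called), with the receptor TGFBR2 at 3975 and 3129 against 1224 and 1141. In the Wnt list 5 of 21 were higher and 1 lower (28.6% called), and the secreted inhibitor DKK1 read 2365 and 1511 against 199.6 and 122. Unsorted control cells read 1549 and 1915 for DKK1, so the CD10- control arrays were the low ones.

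Epithelial junction and luminal genes were lower in part and mesenchymal genes mixed in CD10- cells. Of 21 luminal genes 6 were lower and none higher, of 23 tight junction genes 7 and none, and of 12 desmosome genes 4 and none. The shares called were 28.6%, 30.4% and 33.3%, and 32% and 38.9% for the mesenchymal and basal lists below. Of all genes 26.4% were called, 19.8% higher and 6.66% lower. CDH1, E-cadherin, read 481 and 718 against 1569.8 and 1669 (-1.46, SE 0.24, adjusted p = 0.0012), and CLDN7, a claudin, 76.5 and 163 against 589 and 733 (-2.54, SE 0.32, adjusted p = 0.00025). ESRP1, a splicing regulator of epithelial cells, read 438 and 508 against 1064 and 1464. EPCAM, a surface marker of epithelium, read 2173 and 2857 against 2811 and 2704, and its arrays overlapped. Of 25 mesenchymal genes 5 were higher (CDH11, FN1, FAP, ZEB1 and SNAI2) and 3 lower (S100A4, LOX and TWIST1), with a median 0.06 below that of all genes. VIM, vimentin, was strong in both lines, at 7406 and 7070.3 against 5812 and 7639. Of 18 basal genes 5 were higher, among them KRT14 at 6209.8 and 2563 against 1227 and 754 (2.05, SE 0.56, adjusted p = 0.015), and 2 lower. In unsorted cells, where 0.674% of all genes passed, none of the luminal, junction or basal genes did.

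Redox enzymes were lower in CD10- M1B26 in most of their calls. Prostaglandin and arachidonate genes were mixed, with 3 higher and 4 lower of 13 (53.8% called). Of 24 NRF2 targets and aldo-keto reductases 6 were lower and 2 higher (33.3% called, beside 26.4% of all genes). AKR1C1, AKR1C2 and AKR1C3, related reductases of steroids whose probes may share transcripts, read 2165 and 1919.6, 1563 and 1172, and 1265 and 858 against 4864 and 6809.5, 4201 and 5728, and 3039 and 3834. The cystine transporter SLC7A11 went the other way, at 1006 and 749 against 318 and 180.3, and it was called in unsorted cells as well (1.56, SE 0.33, adjusted p = 0.039). ALOX15B, a lipoxygenase, read 93.2 and 93.4 against 702 and 1129 (-3.24, SE 0.44, adjusted p = 0.00038), while PTGS1, the constitutive cyclooxygenase, was lower in all 3 fractions, at 51.5 and 60.1 against 164 and 220.4 in CD10- cells. Of 39 hypoxia and glycolysis genes 10 were higher and none lower, 25.6% against the 26.4% called of all genes. They were led by ANGPTL4 (1714 and 2912 against 333 and 333) and PKM (2334 and 2478 against 711 and 836), and their median was 0.07 above that of all genes. Of 70 oxidative phosphorylation genes 3 were higher and 4 lower (10% called), and of 24 cholesterol genes none passed.

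Several of the largest decreases are known glucocorticoid-induced genes, and hydrocortisone was in the medium of each line. A list of 17 such genes was made because of these decreases and holds some of them, so its counts restate that choice, with 9 lower and none higher in CD10- M1B26 and 0 called in unsorted cells. TSC22D3, the glucocorticoid-induced leucine zipper, read 258 and 102 against 993 and 5153, ZBTB16, a zinc finger repressor, 72.6 and 34.8 against 352 and 1083, and PDK4, which restrains pyruvate oxidation, 37.8 and 15 against 168 and 800.0. In these genes MCF10A-CT replicate 2 was the highest CD10- array, and unsorted MCF10A-CT read 749 and 707 for TSC22D3. FKBP5, another member, was not past the threshold, with a difference of -0.26.

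**Figure D4:**
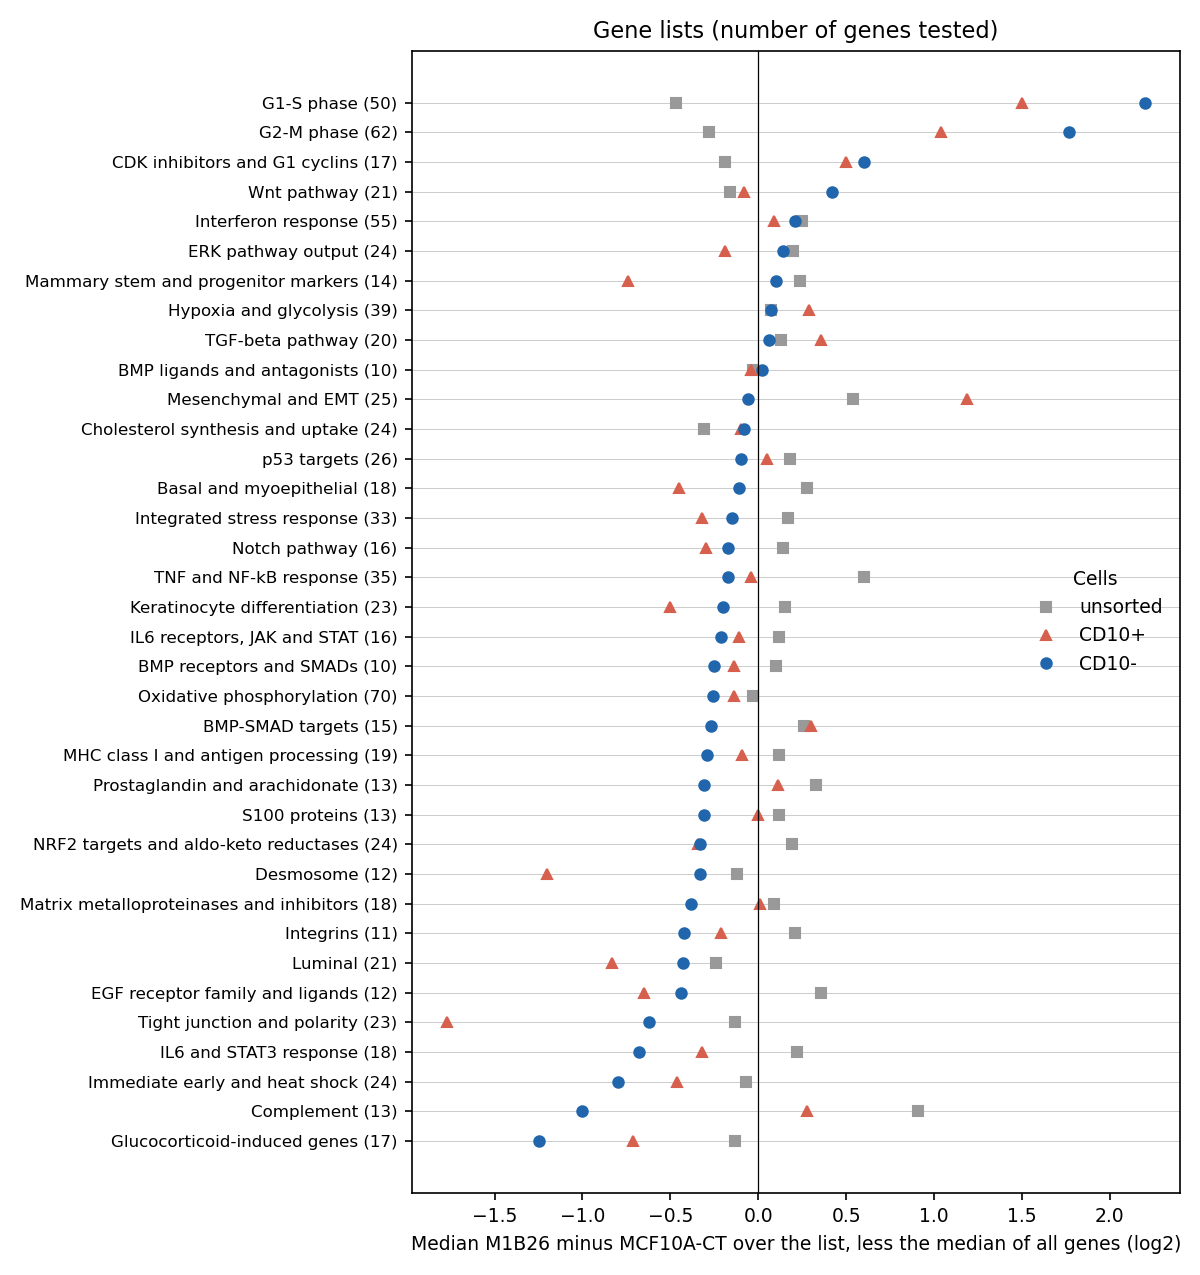
Median log2 difference M1B26 minus MCF10A-CT of each gene list less the median of all genes (x axis), for lists with at least 10 genes tested (y axis, number in brackets), in CD10-, CD10+ and unsorted cells. G1-S and G2-M lie at 2.20 and 1.77 in CD10- cells and below 0 in unsorted cells, and complement lies at -1.0 in CD10- and 0.91 in unsorted cells.

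The study's own score list for CD10, ENI10, was chosen on the sorted MCF10A-CT arrays as genes lower in CD10- than in CD10+ cells. Those CD10- arrays are the controls here, so a higher level in M1B26 is partly built into the list and its counts are no independent evidence of direction. Of 153 ENI10 genes tested 81 were higher and 22 lower in CD10- M1B26, and of its 50-gene cell division subset 49 were higher and 1, SUSD2, lower. NCAPG, a condensin subunit, read 971 and 865 against 156 and 119, and AURKA, a mitotic kinase, 1237 and 1386 against 328 and 288. In unsorted cells 14 ENI10 genes were higher and none lower, and 0 of the subset passed the threshold. SAMSN1, SRGN, FN1, IL1R2, CD59 and MME were among those 14. AOX1, aldehyde oxidase, was another, at 437 and 344 against 45.7 and 77.2 in CD10- cells and 265 and 448 against 76.0 and 87.1 in unsorted cells.

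CD10- M1B26 and CD10- MC26, which were given the same cytokines, were tested directly against each other, and 10 genes differed (0.0822%), a count that rose to 21 without M1B26 replicate 1. SRGN read 2579 and 1952 in M1B26 against 196 and 92.3 in MC26 (4.05, SE 0.50, adjusted p = 0.0024). CDH11, a cadherin of mesenchymal cells, read 106 and 116 against 7.0 and 5.1, at least 7.35-fold higher, and AUTS2 107 and 77.7 against 3.0 and 9.1, at least 6.02-fold higher. MARCKSL1, a regulator of actin, read 676 and 599 against 128 and 140.4 (2.24, SE 0.35, adjusted p = 0.016). The M1B26 arrays were above the MC26 arrays for all 4, and for AUTS2 the control arrays, at 48.6 and 45.4, lay between them. KIR2DL5A and UGT8 were also higher, and CYP1B1, ADD2, PCSK1N and MALAT1 were lower in M1B26. ADD2 read 154 and 89.3 in MC26, so that the low arrays were those of M1B26. Against the same MCF10A-CT arrays, MC26 had 2431 calls (20%) in CD10- cells, a count that fell to 545, 718 and 1058 without MCF10A-CT replicate 2, MC26 replicate 1 and MC26 replicate 2. In MC26 LCP1 read 952 and 576 and CFI 288 and 238. The median difference between M1B26 and MC26 was 0.09 over all genes.

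The line difference depended on the CD10 gate for 168 genes (1.38%), 87 with a larger and 81 with a smaller value in CD10- than in CD10+ cells. The count was 69, 76, 74, 98 and 111 without M1B26 CD10+ replicates 1 and 2, M1B26 CD10- replicate 2, and replicate 2 of CD10+ and of CD10- MCF10A-CT. With the replicate as a block within each line it was 314, of which 148 had a larger and 166 a smaller value. EPCAM, CDH1, MAL2 and ST14, which are genes of epithelial cells, were lower in CD10+ than in CD10- M1B26, while the keratin KRT8 went the other way, at 959 and 896 in CD10- and 1635 and 1944 in CD10+ M1B26. EPCAM read 111 and 191 in CD10+ M1B26 against 2537 and 2024 in CD10+ MCF10A-CT, and the gate difference was 3.81 (SE 0.66, adjusted p = 0.0080). CDH1 read 39.6 and 54.2 in CD10+ M1B26 and 481 and 718 in CD10- M1B26, with a gate difference of 3.46 (SE 0.35, adjusted p = 0.00013). MAL2, a protein of apical transport, read 2182 and 1631 in CD10- M1B26 but 139 and 147 in CD10+ M1B26, and ST14, the protease matriptase, 310.4 and 469 but 32.7 and 27.4. TNNI2 and the host transcript probed for MIR205 were the other large ones in this direction, at 4.41 and 3.66. In the opposite direction, the mesenchymal repressor ZEB2 read 22.7 and 0.9 in CD10- M1B26 and 232 and 313 in CD10+ M1B26 (-5.20, SE 1.19, adjusted p = 0.044). FPR1, a receptor for formylated peptides, read 87.0 and 40.5 against 4275 and 3788, and CADM3, a cell adhesion molecule, 65.2 and 26.4 against 2548 and 1727. GLIS1 and PRR16 were the other large ones, at -5.39 and -5.33. Of the mesenchymal list 15 of 25 genes were higher in CD10+ M1B26 than in its control, compared with 5 of 25 in CD10- cells, and of the tight junction list 14 and 7 of 23 were lower. Of all genes, 21.1% were higher in CD10+ and 19.8% in CD10- M1B26, and 5.32% and 6.66% were lower. SERPINA3, CYP1B1 and ALOX15B were also in this direction, by -4.46, -3.11 and -3.50, and ALOX15B read 955 and 1012 in CD10+ M1B26 against 699 and 971 in its control.

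**Figure D5:**
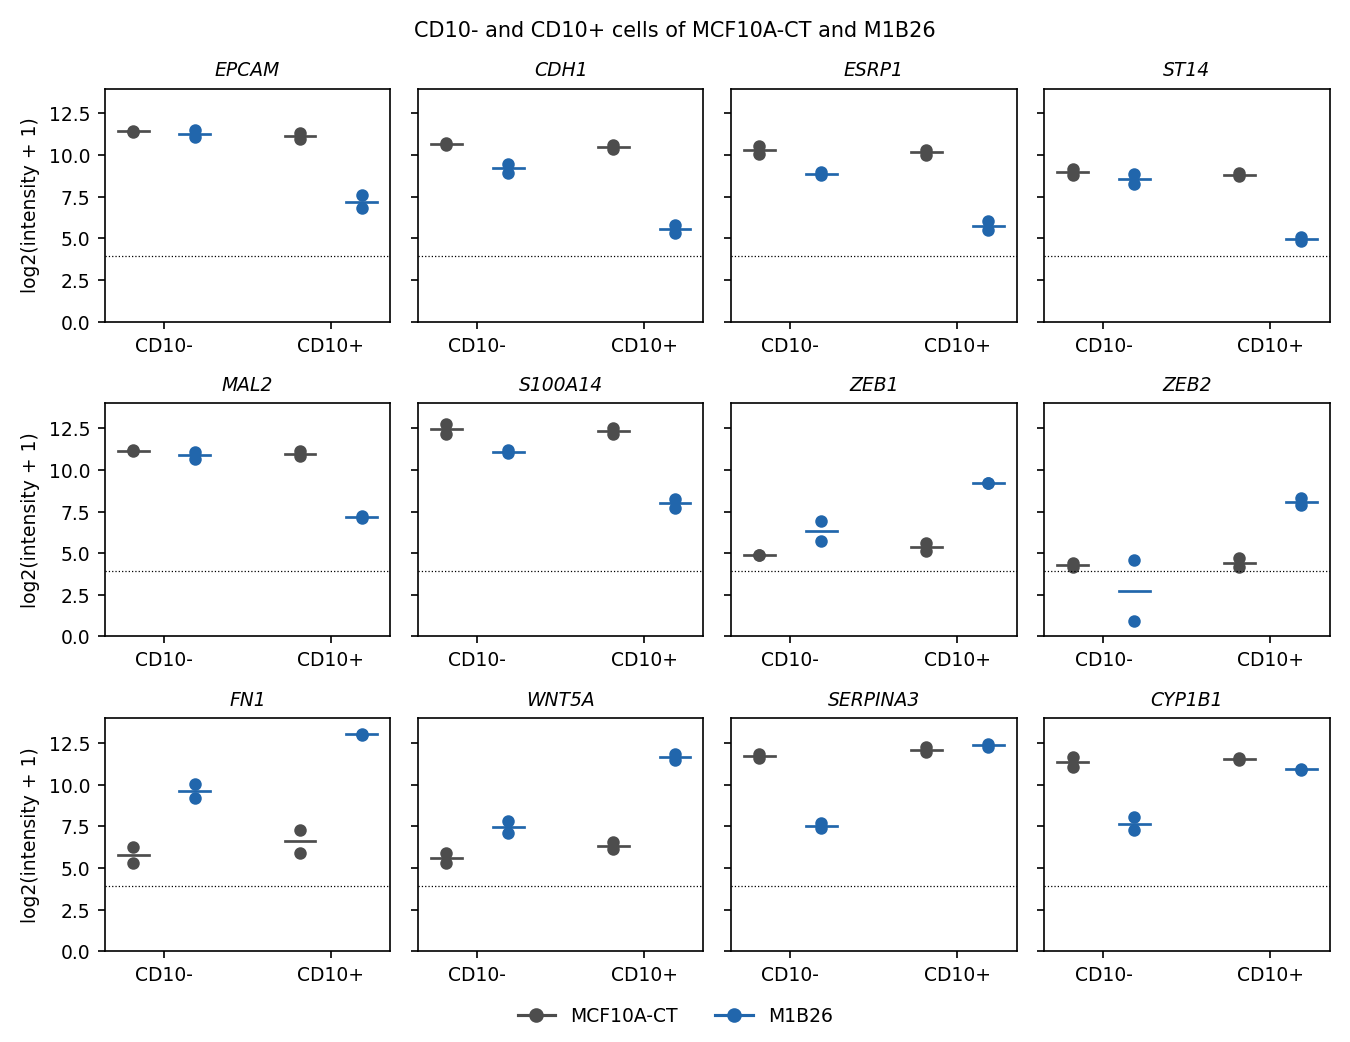
Log2(intensity + 1) (y axis) of 12 genes in CD10- and CD10+ cells (x axis) of MCF10A-CT and M1B26 (colour); points are arrays, bars are means of 2 arrays and the dotted line is the background level of 3.93. EPCAM, ST14 and MAL2 are near the control in CD10- M1B26 and low in CD10+ M1B26, and SERPINA3 and CYP1B1 show the reverse.

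Called genes were spread over the genome. The median CD10- difference by chromosome ran from 0.14 to 0.34 and the share of genes called from 21.2% to 30.9%. The longest run of neighbouring genes called in the same direction was 6 genes on chromosome 6 (SIRT5, NOL7, RANBP9, MCUR1, RNF182 and CD83), with a median of 1.12 in CD10- and 0.67 in unsorted cells. Among runs of at least 4 genes, the unsorted median was highest, at 1.69, for PDS5A, N4BP2, RHOH and CHRNA9 on chromosome 4. A second chromosome 6 run (PAK1IP1, TMEM14C, TMEM14B and SMIM13) had 0.86. The lowest was -0.3, for CREB1, METTL21A, CCNYL1 and FZD5 on chromosome 2.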

How the data were processed

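RNA from 18 cultures or sorted fractions had been hybridised to Affymetrix human expression arrays. The authors deposited linear intensities, which per the labels came from Affymetrix Expression Console and MAS5 (versions not given in the sources used here). Every array had a median intensity of 16.7, but the upper quartiles ran from 95.09 to 123.61. The values were thus scaled and not quantile normalised as the methods describe, and scanner files were not used here. Of 54675 probe sets, 41091 had 1 gene, 1801 several and 11721 none. For each gene the probe set with the highest mean over the 18 arrays was kept, and 12171 of 19777 genes had a mean above the median of all probe set means (14.27). Of these, 4333 used a probe set that may bind related transcripts. Values were taken as log2(intensity + 1), so folds of dim genes are understated. limma 3.58.1 (R 4.3.3) fitted 9 group means with an intensity trend, and calls had a Benjamini-Hochberg adjusted p under 0.05 over all genes tested. The fit was tested on simulated data. Where the lower group was under background on both arrays, the fold is a bound. Replicates correlated at 0.949 to 0.979. Genes named were the 15 largest increases and 15 largest decreases, up to 4 called members of each list by p, the 5 largest each way for MC26 and for the CD10 gate, and fixed markers. The members and lists were chosen with earlier results of these data known. Alternatives covered pseudocount, normalization, centring, filters, probe sets, arrays in the fit, blocks, variance model, the methods' t-test and left-out arrays. Not every gene chosen by the rule is reported here.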

Additional observations from a re-analysis of the deposited data

Results flagged for a closer look

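The line difference M1B26 minus MCF10A-CT was not the same in each cell fraction. A test of the difference between fractions called 168 genes for CD10- against CD10+ cells and 937 for CD10- against unsorted cells, and the latter contrast holds the sorted MCF10A-CT arrays that stood apart. Of the genes named for the CD10 gate, the log2 difference in CD10- less that in CD10+ cells was 4.41 for TNNI2, 3.81 for EPCAM, 3.66 for MIR205, 3.54 for MAL2 and 3.47 for ST14. It was -5.39 for GLIS1, -5.33 for PRR16, -5.20 for ZEB2, -4.84 for FPR1 and -4.77 for CADM3. TNNI2 read 1.8 and 1.5 in CD10+ M1B26, under background, against 88.5 and 44.8 in CD10- M1B26, and PRR16 read 669 and 621 against 29.9 and 10.1.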

How the results depend on the processing

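The 3218 calls in CD10- cells numbered 1746 with only the arrays of the groups compared, 242 with the unsorted MCF10A-CT arrays as control (chosen after seeing the data) and 1 by the methods' t-test, which had 1875 at an unadjusted p under 0.05. Leaving out single arrays gave 1024 to 3450. The other alternatives gave 2329 to 3375, and with quantile normalization 51.6% of calls were higher. For M1B26 against MC26 the count was 4 with the stricter filter, 3 with the mean over probe sets, 5 without _x_at and _s_at probe sets, 0 by the t-test (767 unadjusted) and 9 to 21 without single arrays. For the CD10 gate it was 109 with the mean over probe sets, 314 with line and replicate as a block, 2 by the t-test and 69 to 195 without single arrays. For unsorted cells it was 42 with the stricter filter, 142 with only the groups compared, 0 by the t-test (698 unadjusted) and 20 to 63 without single arrays. For CD10+ cells it was 2 by the t-test and 910 to 3288 without single arrays, and for MC26 against MCF10A-CT 988 with only the groups compared, 1 by the t-test and 545 to 3010. With the replicate number as a block the counts were 3375, 7, 174, 99, 3340 and 2490 in the order CD10-, MC26, gate, unsorted, CD10+ and MC26 against MCF10A-CT. The numbers did not pair the lines, since replicate differences correlated at 0.086, 0.019, 0.019 and 0.118. The cause of these shifts was not tested.

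Of 279 list medians, 259 moved little. Relative to all genes, BMP receptors went to -0.37 (mean over probe sets) and -0.46 (no _x_at or _s_at), IL6 receptors to -0.37 (no filter), 0.06 (stricter filter), -0.50 and -0.54, EGF receptors to -0.16 and -0.30, and G2-M to 1.54 (mean over probe sets). The stricter filter gave -0.47 for complement, -0.63 for MHC class I, -0.66 for mesenchymal, 0.53 for CDK inhibitors and 1.35 for ENI10. Without _x_at and _s_at, ERK had 0.44, prostaglandin -0.01 (-0.58 with no filter), CDK inhibitors 0.80 (0.51 with quantile normalization) and glucocorticoid-induced genes -2.49. Of 157 named genes called, 92 were called in all planned limma alternatives. Signs turned for DST (-0.38) and ITGB1 (-0.07) with the mean over probe sets, and for MSX1 (-0.56), CD59 (-0.50) and MDM2 (-0.91) without _x_at and _s_at. With the unsorted control they turned for ITFG2 (-0.07), CFB (0.70), PSME1 (0.0), TNFAIP8 (0.07), CCN2 (-0.62), CTNNB1 (-0.01), DST (-0.06), S100A9 (1.56), S100A8 (1.43), HMMR (-0.35), NUF2 (-0.11), NCAPG (-0.06), AURKA (-0.02) and MKI67 (-0.41).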
